A study of Mus musculus with 6 samples.

Results

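The G2/M tumor nuclei described here are 814 of the 8149 tumor nuclei, out of 18865 nucleus barcodes in all, from 6 single-nucleus RNA-seq libraries of mouse tumors. They were selected on measured values. In each library they are the 10% of tumor nuclei with the largest share of unique molecular identifiers (UMIs, each standing for 1 captured RNA molecule) from 8 summed genes of the G2 and mitotic phases. The 8 markers are Mki67, Top2a, Cenpf, Cenpe, Kif11, Aspm, Tpx2 and Ccnb1. A nucleus counted as a tumor nucleus where Hmga2, Mecom and Slit2 together made at least 0.5% of its UMIs and where 5 macrophage genes (Adgre1, Cadm1, Csf1r, Cd84 and Mrc1) together had fewer than 3 counts. It also had 100 to 7500 detected genes, under 20% mitochondrial counts and at least 1500 UMIs. Because the share is fixed at 10% of each library, the number of G2/M nuclei says nothing on how many cells were dividing. The 2 groups of 3 libraries came from whole subcutaneous TC1 tumors in C57BL/6 male mice in which loxP sites flank both copies of Slc16a7 (the gene of the lactate and pyruvate transporter MCT2) and which carry the mCre-Tg transgene. Tamoxifen for 5 days, begun at 8 weeks of age, was given to the knockout (KO) group and vehicle to the control (CO) group, so every host carried the floxed gene and Cre. TC1 cells, a mouse lung epithelial tumor line, were injected 2 days later and grown for 24 days. The tumor cells were implanted and do not carry the host's floxed gene, and the promoter that drives Cre is not given in the sources used here.

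The nuclei are named for the phases their markers mark: DNA content was not measured, so G2 and mitosis are not told apart here. A dividing cell copies its DNA in S phase, passes through G2 and enters mitosis when cyclin B bound to Cdk1 is switched on. Chromosomes are then condensed, held at their kinetochores by a spindle of microtubules, and separated when the anaphase promoting complex marks cyclin B and securin for destruction, after which cytokinesis splits the cell. Many genes of these steps are repressed in G0 and G1 by the DREAM complex and switched on late in the cycle by B-Myb and FoxM1, through a promoter element called the cell cycle genes homology region (CHR) and nearby CCAAT boxes that bind NF-Y.

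The 6 libraries held 13252572 to 22057084 UMIs, and the summed G2/M nuclei of a library held 612331 to 1546190 UMIs, against 5105533 to 12363605 in the other tumor nuclei. CO replicates 1 to 3 gave 166, 139 and 72 G2/M nuclei and KO replicates 1 to 3 gave 237, 128 and 72. Between libraries 321 barcodes were shared, none of them by 2 G2/M nuclei. Slc16a7 had 1 UMI in the G2/M nuclei of each CO replicate and 0, 4 and 1 UMIs in those of KO replicates 1 to 3. These counts, nearly all under the floor of 3 counts, allow no comparison of the targeted gene. Host cells, which carry the floxed gene, are not the aim of the selection. The genotype of a nucleus was not measured, so some host nuclei may have passed the tumor limit.

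Promoters of 3 markers and of 3 genes that differed are shown first, as examples with and without the letters named above. For 6 genes, the 200 bases before the transcription start are given 5′ to 3′ on the gene's strand (RefSeq, GRCm38.p6), in lower case with every match in capitals. The motifs searched were TTTGAA with its variants TTTAAA and also TTCGAA for the CHR, and the CCAAT box by the letters CCAAT, on both strands with overlapping matches included. A run in capitals that reads TTCAAA or else ATTGG is thus a match on the other strand. Top2a, Mki67 and Kif11 are markers, Cdc20 was higher in G2/M nuclei, and Mcm6 and Cdc6, of DNA replication, were lower.
Top2a, chr11:99024190-99024389, minus strand: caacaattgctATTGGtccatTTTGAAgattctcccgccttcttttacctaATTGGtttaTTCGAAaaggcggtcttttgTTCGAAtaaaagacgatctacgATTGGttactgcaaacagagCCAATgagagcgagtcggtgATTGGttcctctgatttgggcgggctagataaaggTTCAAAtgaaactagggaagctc
Mki67, chr7:135716380-135716579, minus strand: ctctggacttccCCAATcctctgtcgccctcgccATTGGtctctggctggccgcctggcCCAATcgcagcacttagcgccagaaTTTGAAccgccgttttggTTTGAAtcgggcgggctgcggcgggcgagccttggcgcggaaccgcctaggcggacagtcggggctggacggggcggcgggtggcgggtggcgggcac
Kif11, chr19:37376182-37376381, plus strand: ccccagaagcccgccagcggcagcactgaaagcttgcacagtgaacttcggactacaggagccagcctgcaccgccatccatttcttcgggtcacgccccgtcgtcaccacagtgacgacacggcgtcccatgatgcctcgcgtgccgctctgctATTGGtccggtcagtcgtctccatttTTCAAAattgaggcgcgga
Cdc20, chr4:118437344-118437543, minus strand: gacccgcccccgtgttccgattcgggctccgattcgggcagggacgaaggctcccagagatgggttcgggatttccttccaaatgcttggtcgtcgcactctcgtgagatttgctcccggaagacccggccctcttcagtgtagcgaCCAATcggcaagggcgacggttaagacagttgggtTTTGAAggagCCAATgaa
Mcm6, chr1:128359706-128359905, minus strand: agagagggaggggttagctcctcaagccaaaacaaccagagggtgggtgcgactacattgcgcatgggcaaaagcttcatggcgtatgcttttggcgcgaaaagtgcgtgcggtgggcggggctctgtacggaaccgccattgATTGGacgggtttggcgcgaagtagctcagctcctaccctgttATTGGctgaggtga
Cdc6, chr11:98907951-98908150, plus strand: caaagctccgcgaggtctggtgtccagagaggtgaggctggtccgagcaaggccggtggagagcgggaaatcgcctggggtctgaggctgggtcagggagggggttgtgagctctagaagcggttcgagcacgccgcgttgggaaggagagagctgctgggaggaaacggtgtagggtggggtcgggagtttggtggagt

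The Cdc20 window held a CHR match starting 18 bases before the start site, between CCAAT matches at 53 and 8 bases before it, and the Kif11 window a CHR match at 19 and a CCAAT match at 45 bases. In the Top2a window there were 4 CHR and 5 CCAAT matches. Mcm6 showed 2 CCAAT matches and no CHR match in these 200 bases, and Cdc6 showed neither. By the other annotation used here, for gene locations, Cdc6 starts at chr11:98907801, so its printed window lies inside the gene. Bases before that start were not printed. Over windows from 250 bases before to 50 after each start, TTTGAA was found in 61 of the 132 genes of the mitosis lists that had a window (46.2%), in 6 of 42 DNA replication genes (14.3%) and in 1277 of 9029 genes tested (14.1%). A CCAAT box was found in 62.9% of the mitosis genes, 59.5% of the DNA replication genes and 43.4% of the genes tested. Both a CHR of any of the 3 forms and a CCAAT box lay in the window of 42.4%, 26.2% and 10.1% of these genes, respectively. Of all 27025 genes with a window, 20.2% held TTTGAA, 41.1% CCAAT and 12.8% both kinds. These are matches of letters, with no measure of binding. All 7 markers with a window held both kinds, and 1 marker (Tpx2) had no window.

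The marker share itself, which chose the nuclei, had no gap at the limit. Its lowest value among G2/M nuclei was 0.326%, 0.321% and 0.250% of UMIs in CO replicates 1 to 3 and 0.330%, 0.285% and 0.273% in KO replicates 1 to 3. Just outside, the highest values of nuclei that were not selected were 0.324%, 0.320% and 0.249%, and 0.330%, 0.285% and 0.272%. Within 10% of the limit of their library lay 222 G2/M nuclei above it and 227 other tumor nuclei below it, so the score runs on across the limit. Because the limit is set by a fixed share of nuclei, this cannot tell whether a separate population exists.

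**Figure D1:**
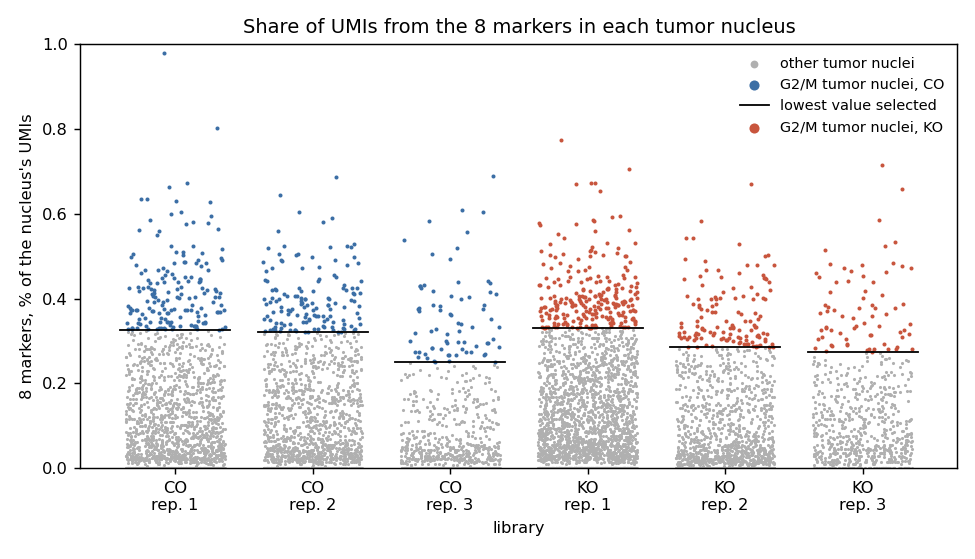
Share of each tumor nucleus's UMIs from the 8 markers (%, vertical axis) in the 6 libraries (horizontal axis), each point 1 nucleus, G2/M nuclei in blue (CO) or red (KO), other tumor nuclei in grey, and a black line at the lowest selected value of the library. Values run on without a gap across the line, which sits lowest, at 0.250%, in CO replicate 3.

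The median marker share of G2/M nuclei lay between 0.333% and 0.403% across libraries, against 0.0308% to 0.0744% in the other tumor nuclei. Each G2/M nucleus had at least 5 marker UMIs, while 13.3% to 28.3% of the other tumor nuclei had none. Top2a, which untangles DNA strands, gave the most marker UMIs, 28.4% to 36.8% of them, and Mki67, which coats mitotic chromosomes, gave 10.2% to 12.7%. All 8 markers were detected in 195 G2/M nuclei (24.0%) and 3 or fewer in 23. Top2a was seen in 94.4% to 100% of G2/M nuclei and in 46.9% to 64.2% of the others, and Ccnb1, cyclin B1, in 41.7% to 56.0% and 11.7% to 19.3%. These values are those of the selection and carry no test.

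To examine each marker apart from its own part in the selection, nuclei were chosen by the other 7 markers. The marker left out was then higher in the chosen nuclei in 6 of 6 libraries, for all 8 markers. Aspm, a protein of the spindle poles, had the largest ratio, 3.24 to 6.47 across libraries (log2 ratio 2.14 ± 0.36, SD, n = 6), followed by Cenpf, a kinetochore protein, at 2.66 to 5.28 (2.00 ± 0.33). Top2a had the smallest ratio, 2.15 to 3.62 (1.33 ± 0.27), and is also made in S phase. Each gave an exact paired permutation p of 0.031, two-sided, which is the smallest that 6 libraries allow and is 0.031 after Benjamini-Hochberg adjustment over the 8. Within the 814 nuclei, the pairwise Pearson r between marker shares ran from -0.22 (Top2a and Aspm) to 0.22 (Cenpf and Aspm). This describes nuclei pooled from 6 libraries that were selected on the sum of these shares, a choice that itself can lower r.

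By median, G2/M nuclei had more UMIs than the other tumor nuclei of their own library. UMIs are the divisor of the share that ranked the nuclei. UMIs, detected genes and mitochondrial share also had limits in the selection, so the p-values given here for these measures carry that selection. The median of G2/M nuclei was 6838.5, 6993.0 and 6322.0 UMIs in CO replicates 1 to 3 and 5109.0, 9808.0 and 9023.5 in KO replicates 1 to 3. The other tumor nuclei had 5595.0, 5847.0 and 5208.0, and 4188.0, 7838.0 and 7407.5. The ratio was 1.20 to 1.25 and above 1 in 6 of 6 libraries, although libraries differed in depth by more than this (mean log2 ratio 0.29 ± 0.02, SD, n = 6; exact paired permutation p = 0.031, 0.0625 after adjustment over 6 such measures). Detected genes rose with it (mean log2 ratio 0.20 ± 0.02, 6 of 6 libraries, exact p = 0.031, adjusted 0.0625). The share of mitochondrial counts was lower in 5 of 6 libraries, with a mean difference of -0.65 ± 0.62 percentage points (exact paired permutation p = 0.0625, adjusted 0.0938). Tumor marker share, by which the nuclei of both sets were admitted, differed by less than the spread between libraries (0.0174 ± 0.0615 percentage points, higher in 3 of 6). The selection left out 515 nuclei that passed the tumor limit and had 3 or more macrophage counts, of which 23 lay above their library's marker limit. It also left out 172 tumor nuclei with more than 7500 genes, of which 6 lay above it.

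Gene by gene, the summed counts of G2/M nuclei were compared with those of the other tumor nuclei of the same library, leaving out the markers and the genes of the tumor and macrophage limits. Levels are in CPM, counts scaled to a common library size with trimmed mean of M-values factors, and a gene was called at an absolute log2 fold change of at least 0.58 and an adjusted p of at most 0.05 in edgeR's quasi-likelihood test, with library as a term. Of 11309 genes, 405 were higher (3.58% of genes tested) and 243 lower (2.15%). The lists on mitosis, of which that of the nuclear envelope is not one, held 159 genes, and 157 had enough counts to be tested. Of these, 111 were higher (70.7%) and 0 lower, and their median log2 fold change was 1.05 against -0.01 over all genes. In the 51 tested genes of the DNA replication list 1 was higher and 17 lower (33.3%), with a median of -0.35. With each nucleus thinned to 1500 UMIs, 4 of 50 were higher and 9 lower, with a median of -0.19. The lists were written with earlier results of these data known.

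**Figure D2:**
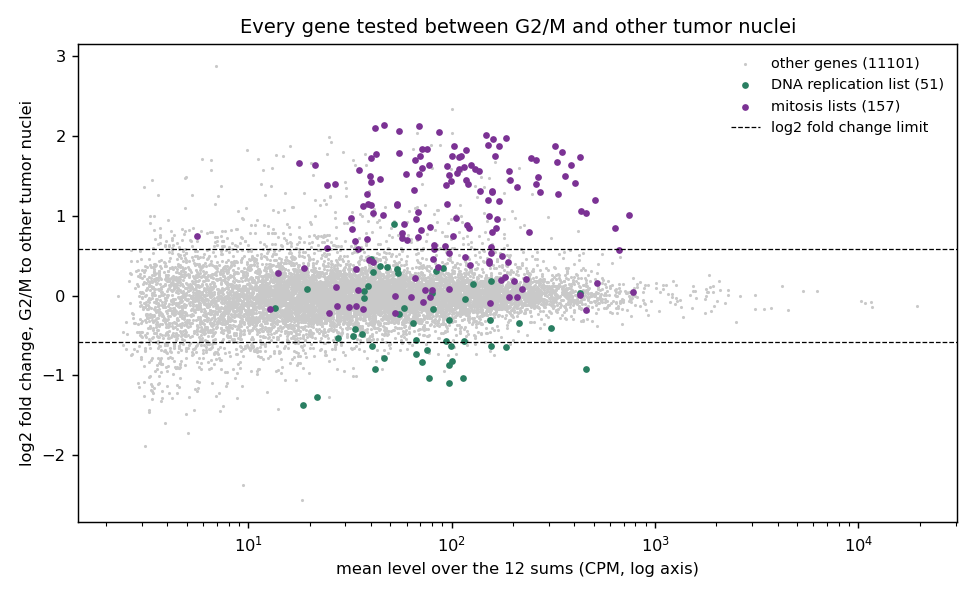
Log2 fold change between G2/M and other tumor nuclei (vertical axis) against the mean level in CPM over the 12 sums (horizontal, log axis), each point 1 gene, with the mitosis lists in purple, the DNA replication list in green and other genes in grey. Mitosis genes spread upwards to a log2 fold change of 2.13, and replication genes lie mostly below 0, down to -1.37.

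Most regulators of mitotic entry were higher, 20 of 23 genes, with a median log2 fold change of 1.31. Cdc25c, the phosphatase that switches on Cdk1, stood at 70.7, 79.6 and 116 CPM in the G2/M nuclei of CO replicates 1 to 3 and at 65.5, 121 and 81.4 in those of KO replicates 1 to 3, against 18.0 to 24.4 in the other tumor nuclei. All G2/M values lay above all others, a 4.18-fold difference (log2 2.06 ± 0.10, SE; edgeR adjusted p = 7.2e-21). Aurka, the kinase that matures spindle poles, was at 102 to 201 CPM against 24.6 to 65.4, a 3.66-fold difference (log2 1.87 ± 0.08, edgeR adjusted p = 8.5e-23). Plk1, a kinase that acts from entry to cytokinesis, was higher in 6 of 6 libraries at 3.41-fold. Cdk1 itself had a log2 fold change of 1.18, cyclin genes Ccnb2 and Ccna2 of 1.73 and 1.52, and Foxm1, the transcription factor, of 1.40. The 3 genes not called were Cdc25a (-0.17), the G1 to S phosphatase of the same family, Pkmyt1 (-0.14), which holds Cdk1 back, and Mybl2 (-0.13), which encodes B-Myb.

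Within chromosome condensation, the condensin genes divided. Those of condensin I, Ncapg (log2 fold change 1.45), Ncapd2 (1.19) and Ncaph (1.13), and the core pair Smc2 (1.00) and Smc4 (1.03) were higher, as was the chromokinesin gene Kif4 (1.72). Those of condensin II, Ncapg2 (0.42), Ncapd3 (0.40) and Ncaph2 (0.38), did not pass the limits, nor did Top2b (-0.02), the paralog of Top2a. No test between the complexes was run. Kif4 stood at 291 to 505 CPM in G2/M nuclei and 78.4 to 149 in the others (edgeR adjusted p = 3.5e-24).

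A like division was seen for cohesin, the ring that holds sister chromatids. Of 16 genes 6 were higher: the protectors Sgo1 (log2 fold change 1.54) and Sgo2a (1.63), the protease gene Espl1 (separase, 1.60) which cuts the ring, Cdca5 (sororin, 1.66) and Esco2 (1.52), which lock it, and the ring subunit gene Rad21 (0.85). The ring subunits Smc1a (0.21) and Smc3 (-0.02), the loader Nipbl (0.16) and the release factor Wapl (0.19) did not pass. Espl1 gave 3.03-fold (edgeR adjusted p = 1.1e-20) and Sgo2a was at 123 to 173 CPM against 32.1 to 51.5.

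At the centromere and kinetochore, where chromosomes meet the spindle, 27 of 33 genes were higher and 0 lower, and all 33 had a positive log2 fold change in each of the 6 libraries. Cenpa, the histone that marks centromeres, was at 645, 664 and 513 CPM in CO replicates 1 to 3 and at 574, 374 and 462 in KO replicates 1 to 3, against 195, 199, 121, 229, 92.0 and 108 in the other nuclei of the same libraries. The G2/M value was higher within every library, 3.48-fold in the fit (log2 1.80 ± 0.06, edgeR adjusted p = 1.1e-25). Knl1, the scaffold that recruits the checkpoint, was at 591 to 796 CPM against 136 to 252 (3.34-fold). In the spindle checkpoint, which delays anaphase until chromosomes are attached, 6 of 8 genes were higher, led by the kinases Bub1 (log2 1.74 ± 0.08, edgeR adjusted p = 1.3e-22) and Ttk (1.58).

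All 4 genes of the chromosomal passenger complex, which corrects wrong attachments, were higher: Cdca8 (log2 fold change 1.75), Aurkb (1.70), Birc5 (survivin, 1.59) and Incenp (1.51). Birc5 was at 144 to 246 CPM and Aurkb at 70.4 to 154 in G2/M nuclei, against 35.7 to 90.7 and 17.8 to 44.1 in the others. The 11 mitotic kinesins, motors that move along spindle microtubules, were higher without exception, with a median of 1.72. Kif14 was at 105, 96.7 and 115 CPM in CO replicates 1 to 3 and at 84.9, 147 and 126 in KO replicates 1 to 3, against 17.0 to 35.3 in the others (4.36-fold, edgeR adjusted p = 9.3e-23). Kif2c, which takes microtubules apart at centromeres, gave 4.14-fold and Kif18a, which limits chromosome movement, 3.88-fold.

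Spindle and centrosome genes were higher in 19 of 26 tested. The largest differences were those of Fam83d (4.29-fold) and Hmmr (4.04-fold), partners at the spindle, with Hmmr at 174 to 266 CPM against 38.4 to 80.3 (edgeR adjusted p = 7.7e-27). Nusap1, which bundles microtubules, gave 3.66-fold. Of the augmin (HAUS) genes in the list, which nucleate microtubules inside the spindle, Haus5 passed (0.60) and Haus1, Haus2, Haus4, Haus6, Haus7 and Haus8 did not (-0.22 to 0.35). The 12 cytokinesis genes were all higher, with a median of 1.66. Cep55, which gathers the machinery that cuts the last bridge between daughter cells, was at 331, 346 and 269 CPM in CO replicates 1 to 3 and at 326, 287 and 218 in KO replicates 1 to 3, against 44.6 to 108 in the others (3.93-fold, edgeR adjusted p = 2.0e-25).

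Of 18 genes of the anaphase promoting complex 4 were higher, with a median log2 fold change of 0.14. The activators Cdc20 (log2 fold change 1.84 ± 0.09, edgeR adjusted p = 5.3e-21) and Fzr1 (Cdh1, 1.27) and the ubiquitin-conjugating enzymes Ube2c (1.36) and Ube2s (1.05) were higher. None of the 14 core subunits passed the limits, with Cdc23 (0.45) and Cdc27 (0.43) the highest of them and Anapc13 (-0.16) the lowest. Ube2c ranged widely between tumors, at 528, 431 and 273 CPM in CO replicates 1 to 3 and at 307, 116 and 160 in KO replicates 1 to 3, but exceeded the other nuclei of its library (180, 149, 97.9, 153, 45.6 and 71.9) each time. At the nuclear envelope, which is taken down and rebuilt in mitosis, 2 of 12 genes were higher, Sun2 (0.92), of the bridge to the cytoskeleton, and Lmnb1 (0.72), lamin B1. Lmna (0.31) and Lmnb2 (-0.16) did not pass.

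**Figure D3:**
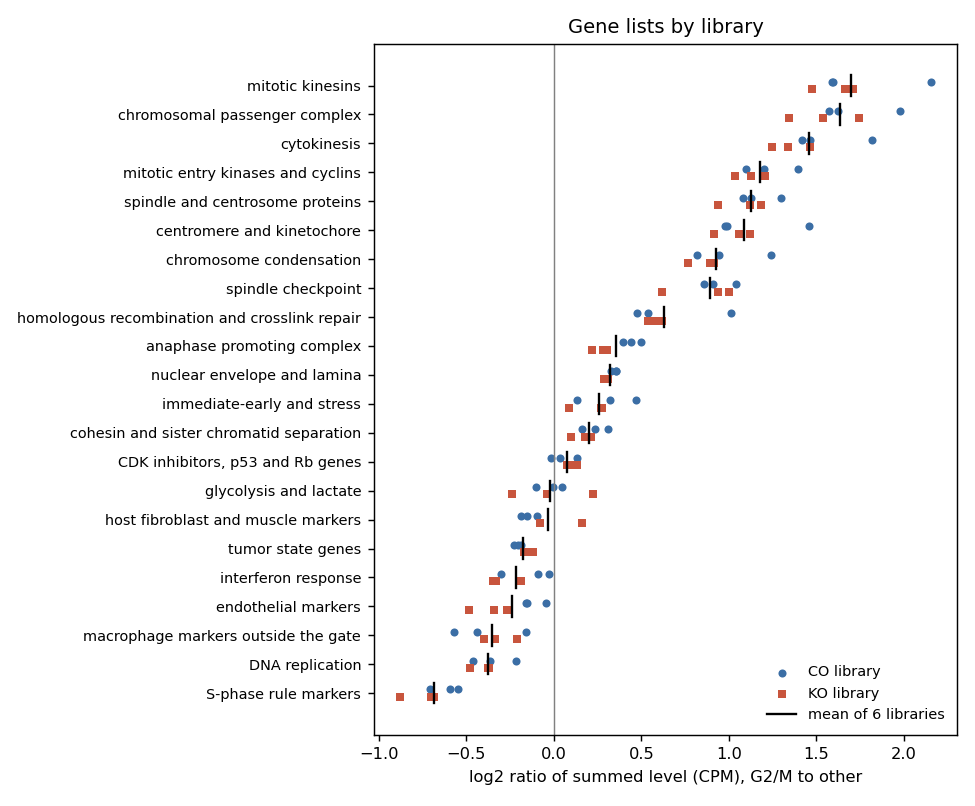
Log2 ratio of the summed level (CPM) of each gene list but that of T and NK cells (few counts), G2/M over other tumor nuclei (horizontal axis), 1 point per library, CO as blue circles and KO as red squares, with a black bar at the mean of 6 libraries. Mitotic kinesins stand highest, from 1.48 to 2.15, and the S-phase markers lowest, from -0.88 to -0.55. CO replicate 3 is the highest library in every mitosis list but that of the anaphase promoting complex.

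Of the 51 DNA replication genes tested, 35 had negative log2 fold changes. Cdc6, which loads the replicative helicase, was at 11.4, 9.48 and 6.55 CPM in CO replicates 1 to 3 and at 7.01, 14.3 and 13.8 in KO replicates 1 to 3, against 18.9 to 29.1 in the other tumor nuclei, with no overlap. That is 2.59-fold lower (log2 -1.37 ± 0.16, edgeR adjusted p = 4.3e-09), on 4 UMIs in the summed G2/M nuclei of CO replicate 3. Mcm6, a helicase subunit, was at 51.2 to 77.3 CPM against 124 to 138, 2.14-fold lower (edgeR adjusted p = 2.6e-15). Ccne2, cyclin E2, which drives entry into S phase, was 2.06-fold lower, and E2f1 had a log2 fold change of -1.04. Not all replication genes fell: Pcna (-0.57) and Mcm2 (-0.51) missed the limit, Rrm2 (0.36) and Tk1 (0.30) had positive values, and Ticrr, which starts replication forks, was higher (0.89, 6 of 6 libraries, edgeR adjusted p = 5.2e-10). The median share of UMIs from 8 S-phase markers was lower in the G2/M nuclei of 6 of 6 libraries, 0.553 to 0.763 of that of the others (exact paired permutation p = 0.031, adjusted 0.0625). Among genes of homologous recombination and crosslink repair, in contrast, 11 of 18 were higher and 0 lower, led by the glycosylase Neil3 (2.80-fold, edgeR adjusted p = 2.0e-23) and the Fanconi pair Fancd2 (2.12-fold) and Fanci (log2 0.93), while Brca2 (-0.09) did not pass. That count was 7 with the top 5% of nuclei as G2/M, 7 with no upper limit on detected genes and 5 without the library term.

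Genes of CDK inhibitors, p53 and Rb, listed with others such as D cyclins, Cdk4, Cdk6 and Mdm2, were mostly level. Of 18 genes, Cdkn2d (p19) and Cdkn2c (p18), inhibitors of Cdk4 and Cdk6, were higher, at 2.47-fold and 1.76-fold (edgeR adjusted p = 8.9e-13 and 5.9e-12), and 0 were lower. Cdkn1a (0.20), Trp53 (-0.05), Rb1 (-0.09) and Ccnd1 (0.07) did not pass. Cdkn2d differed in level between tumors, from 106 CPM in the G2/M nuclei of CO replicate 1 to 23.5 in those of KO replicate 2, and exceeded the other nuclei in 6 of 6 libraries.

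Outside the lists, the 10 genes with the highest fold among those with a mean of at least 20 CPM were Pif1, Gas2l3, Parpbp, Sapcd2, Ankle1, Prr11, Iqgap3, Arhgap19, Kpna2 and Hist1h4i. Pif1, a DNA helicase (chr9:65587160-65595967, 10 merged exons, GRCm38), led them, at 147, 184 and 162 CPM in CO replicates 1 to 3 and at 136, 211 and 174 in KO replicates 1 to 3, against 23.4 to 40.0 in the others. The lowest G2/M value was above the highest of the others, a 5.04-fold difference (log2 2.33 ± 0.08, edgeR adjusted p = 3.7e-26). Parpbp, an inhibitor of homologous recombination, gave 4.09-fold, Gas2l3, which links actin and microtubules, 4.11-fold, and Ankle1, a nuclease, 3.70-fold. Kpna2, a nuclear import receptor, gave 3.42-fold. Among the 10 lowest were Cemip, Cdca7, Mtss2, Prkdc, Rmi2, Dock8, Tex15, Tbc1d24 and Echdc2. Prkdc, of DNA end joining, was at 48.3 to 72.7 CPM against 108 to 146, 1.92-fold lower (edgeR adjusted p = 7.67e-14). Cemip, a hyaluronan-binding protein, was lower in 5 of 6 libraries, with 67.1 CPM in the G2/M nuclei of CO replicate 3 and at most 13.2 in the rest.

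Gene length went with the direction of the calls. Genes were put into 5 classes of equal size by span. In the class of longest genes, over 79.1 kb, 1.42% were higher in G2/M nuclei and 2.87% lower, while in the other 4 classes 3.85% to 4.65% were higher and 1.24% to 2.39% lower. The median log2 fold change was 0.01 in the shortest class and -0.04 in the longest, and it was -0.05 in the longest with the mitosis, replication and repair lists left out. Spans were found for 11303 of the 11309 genes in GENCODE vM21, and a part of length in these results was not tested.

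Lists outside the cell cycle had few calls. In glycolysis and lactate handling 0 of 19 genes were called, with Hk2 (log2 fold change -0.51, edgeR adjusted p = 0.011) and Pfkfb3 (-0.30) the farthest from 0. In the interferon response 0 of 18 were called, with Ifit1 (-0.44) and Oasl2 (-0.41) lower in 6 of 6 libraries but under the fold limit. Before adjustment, p was under 0.05 for 1 of the 19 and 6 of the 18, against 3356 of all 11309 genes (29.7%). DESeq2 called 0 in both lists as well, but some alternatives did not. In the interferon response 3 genes were called lower with the top 5% of nuclei and 1 after thinning to 1500 UMIs. In glycolysis and lactate handling 1 was lower with the macrophage limit as 0.1% of UMIs, and 1 without CO replicate 1. Of 21 immediate-early and stress genes 19 had positive values, with a median log2 fold change of 0.34, and 14 had a p under 0.05 before adjustment. Of these genes 3 were higher, Atf3 (0.88), Fos (0.62) and Ier2 (0.58), but none by DESeq2, and the first was higher in 5 and the second in 4 of 6 libraries. In the list of tumor state genes, Frmd5 was lower (-0.70, edgeR adjusted p = 4.75e-08) and the other 18 were not called.

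Markers of other cell types were followed as a measure of foreign RNA. For macrophages, all 16 tested of 18 markers outside the selection had negative log2 fold changes, 2 of them called (Abcg3 and Ptprc), and their summed level was 94.4 to 443 CPM in G2/M nuclei and 124 to 513 CPM in the others. Markers of T and NK cells summed to 5.82 to 136 CPM in G2/M nuclei, with 3 of 10 tested and 0 called. Endothelial markers summed to 156 to 276 CPM, with Ldb2 and Pecam1 lower among 4 tested of 8, and fibroblast and muscle markers to 657 to 1208 CPM, with Tshz2 lower among 5 tested of 9. DESeq2 called 0 endothelial genes, 1 macrophage gene and 1 fibroblast or muscle gene, and without the library term edgeR called 0 in each list. With the top 5% of nuclei as G2/M, 0 endothelial and 0 fibroblast or muscle genes were called, and with the top 20% 0 macrophage genes. None of these 4 lists had a gene that was higher in G2/M nuclei. The tumor limit itself caps macrophage counts, and the part of foreign RNA in the lower genes was not tested.

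The G2/M nuclei were then set against the 10% of tumor nuclei with the highest share of 8 S-phase markers (Mcm3, Mcm5, Mcm6, Dtl, Pola1, Hells, Clspn and Rrm2). Only 16 nuclei belonged to both sets (1.27% to 3.01% of the G2/M nuclei of a library) and were left out. Of 9305 genes, 520 were higher in G2/M nuclei (5.59%) and 532 lower (5.72%). Mitosis genes were higher in 106 of 156 tested and lower in 3 (Mybl2, Pkmyt1 and Haus4, named after their values were seen), with a median log2 fold change of 1.22. Cep55 was at 222 to 356 CPM in G2/M nuclei and 14.1 to 31.1 in S-phase nuclei, 11.4-fold higher (edgeR adjusted p = 2.85e-26), and Kif2c gave 13.5-fold. Pif1 was at 138 to 211 CPM against 1.93 to 14.1, 24.0-fold. DNA replication genes were lower in 25 of 43 tested and higher in 1 (Ticrr). Cdc6 was at 6.65 to 14.3 CPM in G2/M nuclei and 48.2 to 72.3 in S-phase nuclei, 5.79-fold lower, and Ccne2 was 4.59-fold lower (edgeR adjusted p = 2.2e-19).

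Among the genes that differed here, some were not called between G2/M and other tumor nuclei, and others were called in both comparisons. Brca2 (log2 fold change -0.81, edgeR adjusted p = 1.1e-08) and Fancm (-0.86), both of crosslink repair, were lower in G2/M than in S-phase nuclei of 6 of 6 libraries, whereas Neil3 (1.81) and Fancd2 (1.63) were higher. Dock3, a tumor state gene, was lower, at 101 to 262 CPM against 265 to 494 (-1.08). In the immediate-early list 4 genes were higher, Ier2 (0.91), Klf6 (0.73), Fosl1 (0.68) and Ier5 (0.65), each in 6 of 6 libraries. Of these, Ier2 was also called against the other tumor nuclei. Outside the lists, the genes that were highest were Pif1, Sapcd2, Parpbp, Ankle1 and Gas2l3, and those that were lowest were Necab3, Rmi2, Zmynd19, Dscc1 and Aox1.

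**Figure D4:**
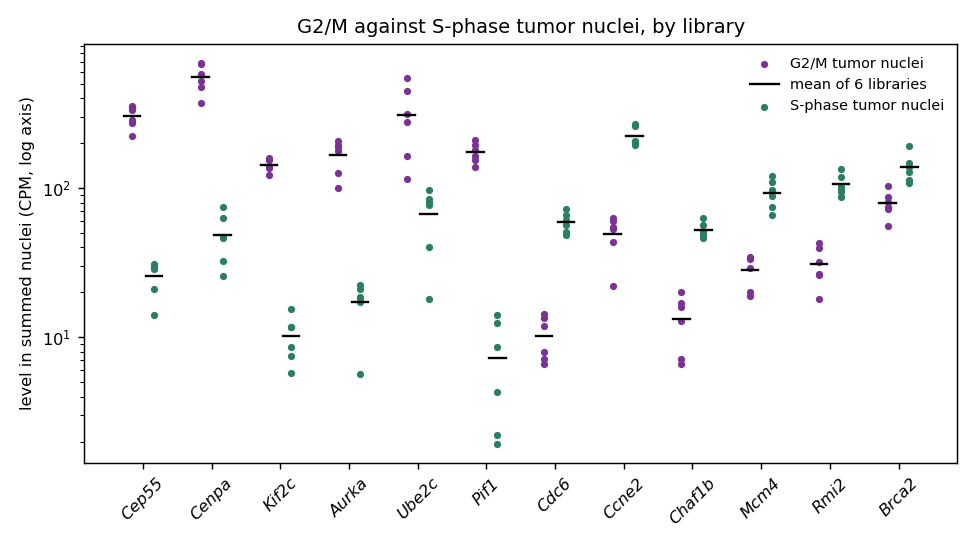
Level (CPM, log axis) of 12 genes (horizontal axis) in the summed G2/M nuclei (purple) and S-phase nuclei (green) of each library, 1 point per library, with a bar at the mean of 6 libraries. Cep55, Cenpa, Kif2c, Aurka and Pif1 are higher in G2/M nuclei with no overlap, and Cdc6, Ccne2, Chaf1b, Mcm4 and Rmi2 are lower with none.

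Whether these nuclei differed with the treatment of the host was asked by comparing KO with CO over the 3 libraries of each group. KO hosts received tamoxifen and CO hosts vehicle, so effects of tamoxifen, of Cre activity and of reduced MCT2 cannot be told apart. Nothing in the labels says more than that each library is a separate sample of its group, so p-values measure the spread between these samples. The marker share over all tumor nuclei, which does not depend on the 10% selection, averaged 0.113% ± 0.0253 of UMIs in CO and 0.117% ± 0.0153 in KO (SD, n = 3; exact permutation p = 0.8, where 3 against 3 allow no less than 0.1). In the G2/M nuclei edgeR made 0 calls among 9712 genes (0% of genes tested). Before adjustment 629 had a p under 0.05, and the smallest adjusted p was 0.660. DESeq2 likewise made 0 calls (439 under 0.05 before adjustment). In simulated counts for this comparison, edgeR recovered 18 of 100 genes changed 2-fold and 87 of 100 changed 4-fold. The count of 0 thus does not show that 2-fold changes were absent. Without KO replicate 1, the largest library by nuclei, edgeR called 1135 genes, 280 higher and 855 lower in KO, so the count of 0 holds only with that library in the fit. The summed tumor counts of KO replicate 1 differed less from each CO replicate than from KO replicates 2 and 3. Chi-square per degree of freedom was 12.1 to 41.4 against 167 and 72.2, a measure that also grows with depth. Whether this bears on the calls was not tested.

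Mitosis genes were tested for the same contrast in 156 cases, with a median log2 fold change of -0.02 in KO, the same as over all genes, 73 positive and 83 negative. The KO and CO values did not overlap for 12 of them (7.69%), 5 higher and 7 lower in KO, against 11.6% of all genes tested. Those with the smallest p were Anapc15, Ube2c, Kif20a and Nek2, each with an edgeR adjusted p of 0.660. Ube2c had log2 -1.09 ± 0.38 in KO, with groups that overlapped (276 to 528 CPM in CO, 114 to 307 in KO). Kif20a, a kinesin of cytokinesis, was at 77.1, 78.4 and 77.7 CPM in CO and at 63.9, 37.4 and 38.8 in KO. Without KO replicate 1, 2 of 156 mitosis genes were higher and 9 lower in KO, against 280 (2.83%) and 855 (8.65%) of 9882 genes, Ube2c (log2 -1.60) and Kif20a (log2 -1.03) among them, and the higher ones were Anapc1 and Diaph3. Summed over a list, cytokinesis genes stood at 4043 to 4145 CPM in CO and 4210 to 5032 in KO, the groups not overlapping. Mitotic kinesins stood at 2263 to 2479 and 2300 to 2608, overlapping. Cytokinesis was the only one of all the gene lists whose groups did not overlap, and these sums carry no test. Immediate-early genes had a median of -0.71 in KO, 2 positive and 17 negative, with 0 of 19 called, 3 at an unadjusted p under 0.05, and 1207 to 2336 CPM in CO against 741 to 1951 in KO for the summed list. That median was -0.31 without CO replicate 1, -0.39 without CO replicate 2 and -0.25 without KO replicate 2. Without KO replicate 1 it was -1.16, and 6 of 19 genes were lower in KO.

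**Figure D5:**
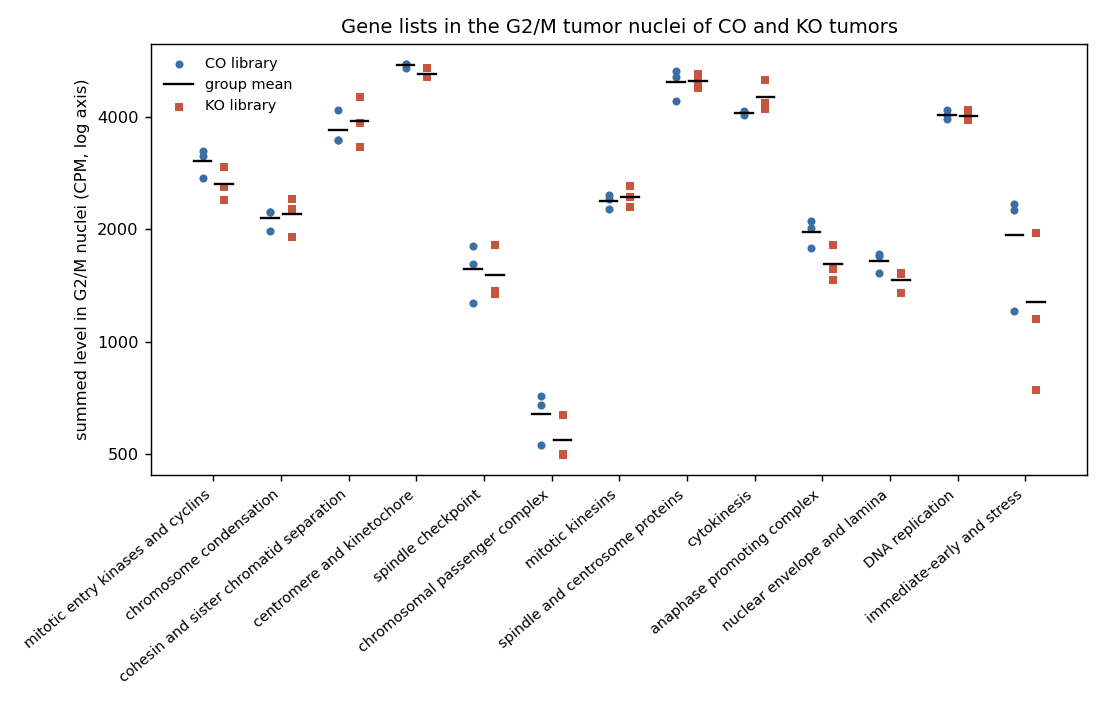
Summed level of each gene list in the G2/M nuclei (CPM, log axis) for 3 CO libraries (blue circles) and 3 KO libraries (red squares), with bars at the group means. CO and KO libraries overlap in every list shown but cytokinesis, where KO spans 4210 to 5032 CPM and CO 4043 to 4145.

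A change in KO particular to the G2/M nuclei was tested as the difference of the KO to CO change between G2/M and other tumor nuclei. By edgeR 0 of 11812 genes passed (0%), and 540 had a p under 0.05 before adjustment. By DESeq2 0 passed (126 before adjustment). Of 157 mitosis genes 122 had a negative value, with a median of -0.10 against -0.01 over all genes, and without CO replicate 3 this was 90 of 157 and -0.02. CO replicate 3 also had the highest ratio of G2/M to other nuclei in every mitosis list but that of the anaphase promoting complex.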

How the data were processed

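Single-nucleus 10x libraries were analysed from gene by nucleus matrices. The authors deposited UMI counts per gene and nucleus. Their notes name Cell Ranger 3.0.2 and Seurat 5.2.1, the file headers give software version 3.1.0, and the build is GRCm38. The methods describe removal of ambient RNA, yet the deposited counts are whole numbers, and the counting of intronic reads is not given in the sources used here. Counts of the selected nuclei were summed per library. edgeR 4.0.16 (quasi-likelihood test, R 4.3.3) was fitted over all genes that passed its filter on low counts, with library as a term for comparisons within libraries, and the script was tested on simulated data. Single values were compared by exact permutation tests (scipy 1.17.1, two-sided). DESeq2 1.42.0, other scalings, filters and selections, thinning to 1500 UMIs, leaving out doublet-like nuclei (Scrublet, in scanpy 1.11.5; no doublets were removed for the results given) and leaving out each library were the alternatives. Named genes were, per list, up to 4 called genes with the largest fold change (with no call, up to 2 genes tested), the 4 mitosis genes with the smallest p between KO and CO, and the 10 highest and 10 lowest outside the lists (5 each against S-phase nuclei) at a mean of at least 20 CPM. Other list members were named after their values were seen, to describe their list, and some genes that the rule names are not reported here. Members and lists were chosen with earlier results of these data known. SD and SE measure the spread between libraries.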

Additional observations from a re-analysis of the deposited data

Results flagged for a closer look

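Among 25 measures of the G2/M nuclei over 6 libraries, 5 had 1 library far from the others, by the gap to its nearest neighbour relative to the whole range. Chance gives such a gap in about 1 in 20 groups, and the 5 measures share nuclei. In each of them it was CO replicate 3. Its log2 ratio of G2/M to other tumor nuclei was 2.15 for the summed mitotic kinesins (1.48 to 1.71 in the other 5 libraries) and 1.01 for homologous recombination and crosslink repair genes (0.47 to 0.62). With nuclei chosen by the other 7 markers, its log2 ratio was 2.08 for Mki67 (1.31 to 1.57), 1.86 for Top2a (1.10 to 1.37) and 1.90 for Tpx2 (1.40 to 1.56). The other tumor nuclei of CO replicate 3 had the lowest median marker share, 0.0308%, and the most nuclei with no marker UMI, 28.3%. The part of these values in the ratios was not tested.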

How the results depend on the processing

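Between G2/M and other tumor nuclei, 648 genes were called, 384 after thinning to 1500 UMIs (8565 genes tested) and 295 without the library as a replicate block, and 521 to 722 under the other alternatives. Against S-phase nuclei 1052 were called, 337 after thinning (4493 tested) and 558 without the replicate block. The median of the mitosis lists stayed between 1.00 and 1.15, and that of DNA replication went from -0.35 to -0.48 with the top 5% of nuclei, -0.24 with the top 20% and -0.19 after thinning. For KO against CO, calls ranged from 0 to 1135 on leaving out 1 library, with 1135 only without KO replicate 1. Lyz2, at log2 0.67 between KO and CO, ranged from -2.09 without KO replicate 1 to 1.25 without KO replicate 2. For the difference of the KO change between G2/M and other nuclei, calls were 1 without a filter on low counts (Pcdh9), 4 with the top 5% and 1 with the top 20%, and 0 to 3 on leaving out 1 library. The marker share differed by 0.0047 percentage points between KO and CO, from -0.00991 without CO replicate 3 to 0.0121 without CO replicate 1, and by -0.00369 without KO replicate 1. The ratio of median UMIs, 1.22, was 1.21 to 1.23 on leaving out 1 library, where 5 libraries allow no p below 0.0625. Replicate numbers did not pair KO with CO libraries (same-number correlations 0.48, -0.22 and 0.16), and with the number as a replicate block 0 genes were called, 1204 at an unadjusted p under 0.05. Thinned counts and left-out libraries give fewer genes or samples to test. For the other changes the cause was not tested.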

Other observations

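Some gene groups outside the lists were examined after their values were seen. Of the replication-dependent histone genes, whose usual transcripts end in a stem-loop without a poly(A) tail, 13 passed the filter on low counts. All 13 were called higher in G2/M than in other tumor nuclei, with log2 fold changes of 1.07 to 1.77 and a median of 1.48 (edgeR). Hist1h1c, Hist1h4d and Hist2h4 were higher in only 5 of 6 libraries. The filter can pass a gene on its level in G2/M nuclei alone. That was so for Hist1h2ac and Hist2h2be, at 1.06 to 2.72 and 1.47 to 2.28 CPM in the other nuclei. Histone genes low in both sets of nuclei could not enter this count. Of 13 mitochondrial genes 12 had a negative value and 0 were called, with a median of -0.13, and of 74 ribosomal protein genes 0 were called (median -0.05).

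Cd209c, a C-type lectin gene, had the largest fold change of all genes tested, 7.36-fold (log2 2.88, edgeR adjusted p = 1.4e-10). It had 38, 12 and 3 UMIs in the G2/M nuclei of CO replicates 1 to 3 and 8, 10 and 10 in those of KO replicates 1 to 3. In the other nuclei it was at 0.39 to 3.40 CPM, on 2 UMIs in CO replicate 3 and 3 in KO replicate 3. It thus passed the filter on low counts through the G2/M nuclei, where it was high, so its rank and p carry that selection. Ung, which removes uracil from DNA, was 5.19-fold lower (log2 -2.38, edgeR adjusted p = 3.8e-09), at 0 to 6.55 CPM in G2/M nuclei and 11.7 to 19.2 in the others, with no overlap. Both lie under the mean of 20 CPM used to name genes and were named after their values were seen.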
